A study of Mus musculus with 8 samples.

Results

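The genes described here are 40 mouse genes of glycolysis and of the cellular response to low oxygen. They were chosen by name from knowledge of these pathways, with earlier results of these data known. Rows with a single symbol in the platform annotation measured 38 of them, out of 20259 genes on the array. Eno1 and Gpi1 had no row with a single symbol in that annotation. The samples were whole-skin biopsies of wound scars taken at an early stage of wound-induced hair neogenesis, in which follicles form anew within scarred skin. A mouse strain with low regeneration was compared with a strain with high regeneration on 8 Affymetrix exon arrays, 4 per group. The sample titles number the replicates and do not say whether each is 1 mouse. The samples are called low 1 to low 4 and high 1 to high 4. The sources used here name neither strain, age nor biopsy day, and no treatment other than the wound is named. Because the groups are strains, regeneration level and genetic background cannot be told apart.

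Glycolysis splits glucose into pyruvate in the cytosol. Its pace is set at glucose uptake, at hexokinase and at phosphofructokinase, and lactate dehydrogenase then turns pyruvate into lactate. When oxygen is short, the HIF transcription factors escape destruction by prolyl hydroxylases and the Vhl ubiquitin ligase, pair with Arnt and switch on glucose transporters, glycolytic enzymes and vessel growth factors. In wounded skin, cut vessels leave the tissue short of oxygen, and migrating keratinocytes and repair cells are known for high glucose use.

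The values are log2 expression values, and the array medians lay between 6.09 and 6.29. Skeletal muscle transcripts were abundant in low 3 and low 4. The mean of 28 muscle markers was 8.87 in low 3 and 9.57 in low 4, against 6.62 to 6.82 on the other 6 arrays. The Y-linked gene Eif2s3y lay at 7.57 to 7.70 in low 2, low 4 and high 4 and at 4.08 to 4.76 on the other arrays. Xist, transcribed from the silenced X, lay at 9.60, 10.05 and 6.11 in those 3 arrays and at 12.74 to 12.93 elsewhere. Both sets of arrays were left out in turn, and the values without them are given below.

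Of the glycolytic enzymes and their regulators, Hk2, Pfkfb3, Eno2 and Pfkl were higher in the high-regeneration scars. Hk2 rose 1.82-fold, Pfkfb3 1.42-fold, Eno2 1.38-fold and Pfkl 1.26-fold, and of the hypoxia-induced genes Ankrd37 rose 1.48-fold and Vegfa 1.32-fold. Ldhb, the lactate dehydrogenase of oxidative tissues, was the only measured member that fell, by 0.46 on the log2 scale. The other 31 measured members, among them Slc2a1, Hk1, Pfkp, Pfkm, Pfkfb4, Gapdh and Hif1a, did not pass the test. In these bulk biopsies, fewer cells of a type and less RNA per cell cannot be told apart.

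Passing means an adjusted p under 0.05 in limma over all 20259 genes. By that rule 6 of 38 measured members were higher, against 1.86% of all genes, and 1 was lower, against 2.47% (4.32% in either direction). At an unadjusted p under 0.05 there were 18 members, against 21.8% of all genes. Over all genes tested, 376 were higher and 500 lower, 212 and 593 after median centring, and 291 and 628 after cyclic loess. Every high array lay above every low array in 8 members (7.19% of all genes) and below in 3 (7.29%). The median member difference was 0.16 on the log2 scale, against 0.03 over all genes, and 31 of 38 estimates were positive, against 57.2% of all genes. After median centring 28 of 38 were positive, against 41.1%. Because the members were chosen with earlier results of these data known, these shares describe the list and do not test it.

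**Figure D1:**
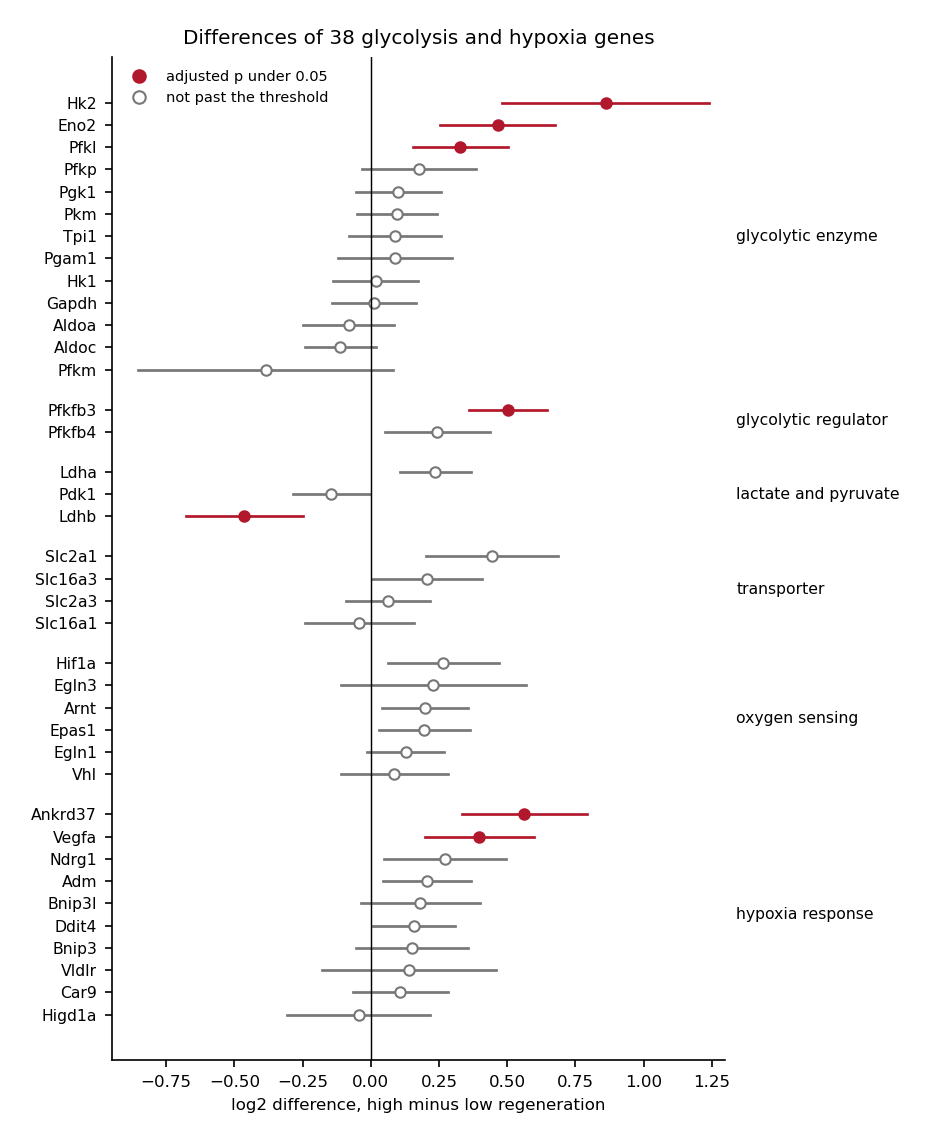
Log2 difference (high minus low regeneration, x axis) of each of the 38 measured members, grouped by role, with 95% confidence intervals from limma as bars (n = 4 per group). Filled red points passed an adjusted p of 0.05: Hk2, Eno2, Pfkl, Pfkfb3, Ankrd37 and Vegfa lie to the right of 0 and Ldhb to the left, and 18 of the 38 intervals, those of the called members included, leave out 0.

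The promoters of the members were searched for the letters ACGTG and GCGTG, the core of the DNA element that HIF binds. RefSeq promoters of the GRCm38.p6 build, from 250 bases before to 50 bases after a start site, matched 36 of the 40 genes with 51 promoters. No entry was matched for Slc2a3, Epas1, Bnip3l and Ndrg1. On either strand, ACGTG was present in 26 of 51 member promoters, against 19.6% of all 32851 promoters in the table, and GCGTG in 28 of 51, against 32.4%. Among the 19217 promoters of the genes tested the shares were 22.0% and 40.7%. The member promoters had a median GC content of 62.0%, against 57.3% in the genes tested and 52.7% over all promoters, and many members were chosen as known HIF targets, so the difference in shares is a description. By gene, ACGTG was found in 4 of the 6 risers and in 19 of the 27 uncalled members with a promoter. In Vegfa, 1 of these 4 risers, ACGTG lay in the promoter chr17:46025114-46025413, while its promoter chr17:46032328-46032627 had neither motif. Promoters of 4 risers and of the lactate dehydrogenase pair are shown, each 5′ to 3′ on the gene's strand with both motifs in capitals, because these genes carry the comparison. CACGTG reads as ACGTG on both strands, and adjoining matches share 1 run of capitals. The regions are chr6:82774405-82774704 (minus strand) for Hk2, chr2:11502041-11502340 (minus) for Pfkfb3, chr8:45999801-46000100 (minus) for Ankrd37, chr6:124769624-124769923 (minus) for Eno2, chr7:46845554-46845853 (plus) for Ldha and chr6:142507908-142508207 (minus) for Ldhb.
Hk2: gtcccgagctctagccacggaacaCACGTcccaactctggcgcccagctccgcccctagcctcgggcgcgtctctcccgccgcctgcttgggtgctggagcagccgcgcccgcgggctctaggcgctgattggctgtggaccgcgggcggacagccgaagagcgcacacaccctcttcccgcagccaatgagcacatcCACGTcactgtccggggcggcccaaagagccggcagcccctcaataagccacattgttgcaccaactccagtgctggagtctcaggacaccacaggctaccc
Pfkfb3: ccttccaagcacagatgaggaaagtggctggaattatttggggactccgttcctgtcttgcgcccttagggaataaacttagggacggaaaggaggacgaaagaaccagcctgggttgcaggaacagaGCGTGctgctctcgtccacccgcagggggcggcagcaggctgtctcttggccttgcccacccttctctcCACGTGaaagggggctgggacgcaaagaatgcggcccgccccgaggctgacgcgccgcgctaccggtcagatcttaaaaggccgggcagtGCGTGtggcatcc
Ankrd37: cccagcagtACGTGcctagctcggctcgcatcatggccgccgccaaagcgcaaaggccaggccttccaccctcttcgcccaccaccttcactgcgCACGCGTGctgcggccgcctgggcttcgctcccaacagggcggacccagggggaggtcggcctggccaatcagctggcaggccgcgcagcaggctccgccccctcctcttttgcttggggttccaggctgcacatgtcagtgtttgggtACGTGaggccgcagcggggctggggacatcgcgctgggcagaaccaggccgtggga
Eno2: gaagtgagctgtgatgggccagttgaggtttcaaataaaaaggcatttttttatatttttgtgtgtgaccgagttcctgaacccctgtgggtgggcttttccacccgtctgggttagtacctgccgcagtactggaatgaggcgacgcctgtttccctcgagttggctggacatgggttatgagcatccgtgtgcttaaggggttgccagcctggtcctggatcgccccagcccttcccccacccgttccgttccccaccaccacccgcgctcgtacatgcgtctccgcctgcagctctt
Ldha: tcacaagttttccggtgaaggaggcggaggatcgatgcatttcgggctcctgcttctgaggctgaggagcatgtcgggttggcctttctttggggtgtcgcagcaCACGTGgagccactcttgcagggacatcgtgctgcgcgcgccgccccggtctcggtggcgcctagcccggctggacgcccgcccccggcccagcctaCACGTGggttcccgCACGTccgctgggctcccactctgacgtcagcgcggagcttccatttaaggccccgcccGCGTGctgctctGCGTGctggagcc
Ldhb: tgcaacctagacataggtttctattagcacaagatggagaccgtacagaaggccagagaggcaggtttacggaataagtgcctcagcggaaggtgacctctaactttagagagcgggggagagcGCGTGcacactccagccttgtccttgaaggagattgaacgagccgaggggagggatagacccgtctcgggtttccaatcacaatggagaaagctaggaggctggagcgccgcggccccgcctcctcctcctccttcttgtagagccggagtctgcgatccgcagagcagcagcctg
The Hk2 window holds ACGTG at -226 and -52 from the start site, read on the opposite strand. In Pfkfb3 a CACGTG lies at -53, and a further promoter of this gene (chr2:11553880-11554179) has ACGTG at -60. Ankrd37 has ACGTG at -241 and -6, with a pair of overlapping GCGTG matches between them. Eno2, which rose, has neither motif in these 300 bases, and Ldhb, which fell, has a GCGTG at -126 and no ACGTG. Ldha, the muscle-type partner of Ldhb, has 5 ACGTG matches counted by strand.

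Glucose enters skin cells mainly through Slc2a1 (GLUT1), the transporter of basal keratinocytes and many other cells. Slc2a1 was at 9.59, 9.23, 9.25 and 9.13 in low 1 to low 4 and at 9.69, 9.59, 9.86 and 9.83 in high 1 to high 4. All high arrays lay above all low arrays, but low 1 and high 2 were level to 2 decimals. The difference of 0.45 ± 0.11 (SE) just missed the threshold at a limma adjusted p of 0.0524, and the alternatives spanned 0.0166 to 0.467. Slc2a3 (GLUT3), a high-affinity transporter of neurons and leukocytes, differed by 0.06, with a 95% interval of -0.09 to 0.22.

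Hexokinases trap glucose in the cell as a phosphate ester, and Hk2 is the inducible, insulin-responsive form. Hk2 was at 8.43, 8.19, 8.13 and 8.28 in the low arrays and at 8.78, 8.91, 9.64 and 9.16 in the high arrays, in replicate order. High 3 stood highest and the groups did not overlap. The difference was 0.86 ± 0.17 (SE) on the log2 scale, from 8.26 ± 0.13 (SD, n = 4) to 9.12 ± 0.38, at a limma adjusted p of 0.0263, and it was the largest among the measured members. The call was lost in 8 of 19 alternatives, among them without low 3 and low 4 (0.81, adjusted p = 0.150) and with low 2, low 3, low 4 or high 4 left out (adjusted p up to 0.0734), and the adjusted p ranged from 0.0199 to 0.351 over the alternatives. Hk1, the constitutive hexokinase, was at 9.02 ± 0.10 and 9.03 ± 0.07, and its 95% interval ran from -0.14 to 0.17. The rows of Hk1 had opposite signs, 0.14 and -0.10.

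Phosphofructokinase makes the committed step, and its subunits come from the genes Pfkl, Pfkm and Pfkp, named for liver, muscle and platelet. Pfkl was at 9.21, 8.95, 8.90 and 8.96 in low 1 to 4 and at 9.35, 9.28, 9.32 and 9.37 in high 1 to 4. Low 1 was nearest to the high group. The rise of 0.33 ± 0.08 (SE) passed narrowly (limma adjusted p = 0.0469), and it did not pass after median centring or cyclic loess, or with any array other than low 1 left out (adjusted p up to 0.122). Pfkp was at 8.39, 8.30, 8.16 and 7.95 in the low arrays and within 8.35 to 8.41 in the high arrays. Its difference of 0.18 had an adjusted p of 0.294, and was 0.03 without low 3 and low 4. Pfkm went the other way, as described with the muscle genes below.

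Pfkfb3 encodes the kinase that makes the strongest activator of phosphofructokinase, and is itself a hypoxia-induced gene. Its values were 7.79, 7.68, 7.76 and 7.71 in the low arrays and 8.14, 8.24, 8.35 and 8.22 in the high arrays. The gap between the groups was wide beside the spread within them, and low 3 and low 4 did not stand apart. Pfkfb3 rose by 0.50 ± 0.06 (SE), from 7.73 ± 0.05 (SD, n = 4) to 8.24 ± 0.09, with the smallest adjusted p among the measured members (limma, 0.00605). It passed in 18 of 19 alternatives, and without low 3 and low 4 the difference was again 0.50 (adjusted p = 0.0344). It missed the threshold when the 3 arrays with Y-linked signal were left out, at 0.47 (adjusted p = 0.212; 0.00377 to 0.212 over the alternatives). Pfkfb4, its paralog, was at 7.58 to 7.83 in the low and 7.78 to 8.11 in the high arrays. These ranges overlapped, and its 0.24 ± 0.09 did not pass (adjusted p = 0.142).

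**Figure D2:**
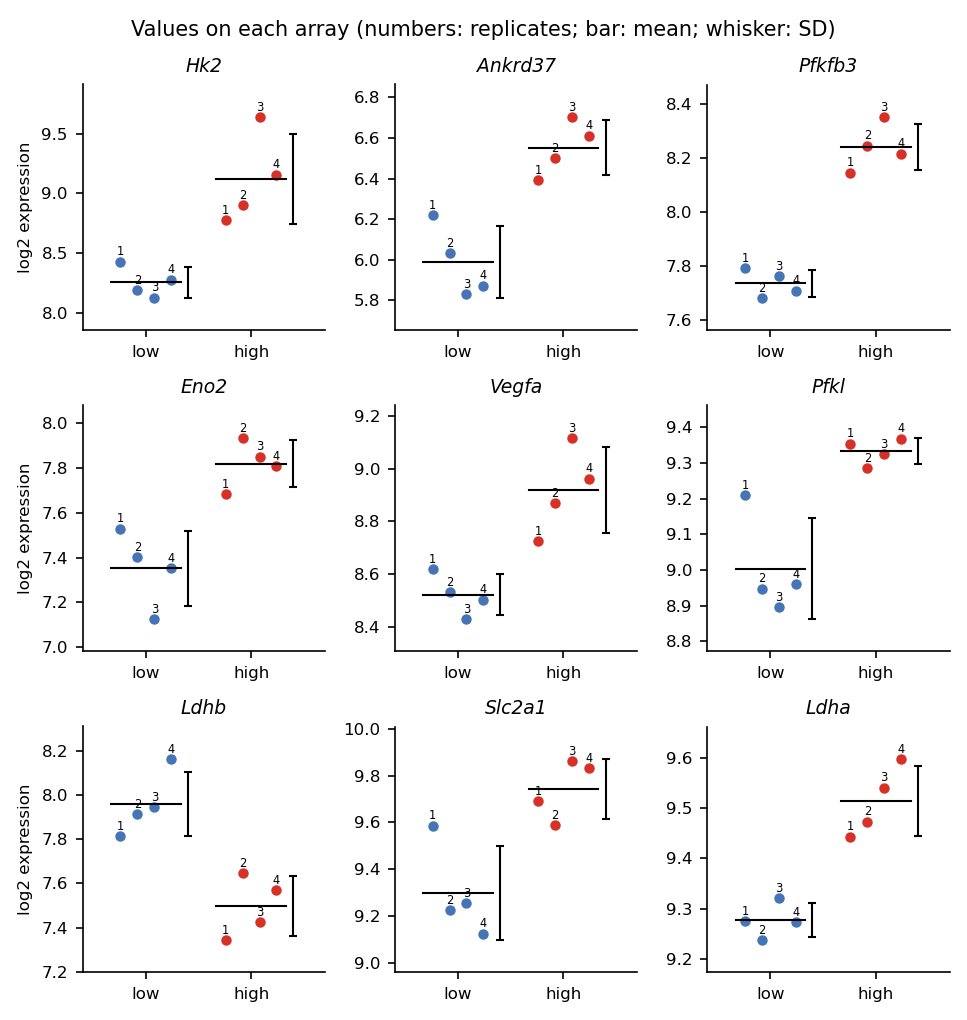
Log2 expression (y axis, scaled per gene and not starting at 0) of the 7 called members and of Slc2a1 and Ldha on each array of the low and high groups, with replicate numbers beside the points, the group mean as a line and the SD as a whisker (n = 4). The panels are the 8 members with every high array above every low array (7.19% of all genes) and Ldhb. Ldhb is 1 of 3 members with every high array below (7.29%), and the others, Aldoc and Pdk1, are not shown. Separation in all 9 genes thus follows from the choice of panels. The gap is wide in Pfkfb3 and smallest in Slc2a1, where low 1 touches high 2.

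The enzymes in the middle of the pathway differed little. Aldoa and Aldoc (aldolases), Tpi1 (triosephosphate isomerase), Gapdh, Pgk1 (phosphoglycerate kinase), Pgam1 (phosphoglycerate mutase) and Pkm (pyruvate kinase) had differences between -0.11 and 0.10. Of these 7, 0 passed, against 4.32% of all genes in either direction. Gapdh, often used as a reference gene, was at 10.60 ± 0.11 in low and 10.61 ± 0.04 in high scars, with a 95% interval of -0.14 to 0.17. These are means of 3 rows far apart in level, at 13.25, 10.77 and 7.78 in low scars. Their differences disagreed in sign, at 0.01, -0.12 and 0.14. Pgk1 differed by 0.10 with an interval of -0.05 to 0.26, and Pkm by 0.10 with an interval of -0.05 to 0.24. Aldoc was at 7.27, 7.27, 7.21 and 7.36 in the low arrays and at 7.16, 7.20, 7.11 and 7.18 in the high arrays. All high arrays were below all low arrays by a narrow gap, and its difference of -0.11 ± 0.06 (SE) had an adjusted p of 0.289. Genes of this stretch have many processed pseudogenes and near-identical copies, so the source of their signal is uncertain. Gapdh had 22 further rows shared with other genes, whose differences ran from -0.15 to 0.21, and 1 of the 5 rows of Pgam1 lay far below the array medians, at 4.60 in low and 4.18 in high scars, with a difference of -0.41, while the other 4 were at 0.17 to 0.25.

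Eno2, the enolase best known from neurons and also induced by hypoxia, stood apart from the middle enzymes. It was at 7.53, 7.40, 7.13 and 7.35 in low 1 to 4 and at 7.68, 7.93, 7.85 and 7.81 in high 1 to 4. No arrays overlapped, and low 3 was the lowest. The rise of 0.46 ± 0.09 (SE) had a limma adjusted p of 0.0293, and was 0.35 (adjusted p = 0.119) without low 3 and low 4.

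Lactate dehydrogenase is a tetramer of Ldha and Ldhb chains, of which Ldha is the HIF-induced form of glycolytic tissue and Ldhb that of oxidative tissue such as heart. Ldhb was at 7.81, 7.91, 7.95 and 8.16 in the low arrays and at 7.34, 7.65, 7.43 and 7.57 in the high arrays. Its rows gave -0.46 and -0.47, and the groups did not overlap. The fall had an SE of 0.09 and a limma adjusted p of 0.0313, and the difference was -0.37 (adjusted p = 0.140) without low 3 and low 4, its 2 highest arrays. Ldha moved in the opposite direction without passing. It was at 9.28, 9.24, 9.32 and 9.27 in the low and 9.44, 9.47, 9.54 and 9.60 in the high arrays. The high arrays all lay above, and the 3 rows had differences of 0.16, 0.22 and 0.34, but 0.24 ± 0.06 (SE) stayed above the threshold, with a limma adjusted p of 0.0558 and 0.0385 to 0.469 among the alternatives.

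Pdk1, a kinase that inhibits the mitochondrial enzyme pyruvate dehydrogenase and a classical HIF target, was not higher. It was at 7.62, 7.43, 7.49 and 7.47 in low and at 7.36, 7.40, 7.28 and 7.39 in high scars. Every high array was below every low array, by a mean difference of -0.14 ± 0.06 (SE) that did not pass (adjusted p = 0.220). Of the lactate carriers, Slc16a3 (MCT4), the HIF-induced exporter, differed by 0.21 (adjusted p = 0.222), and Slc16a1 (MCT1) by -0.04, with a 95% interval of -0.24 to 0.16.

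The oxygen-sensing genes themselves gave 0 calls in 6 in the main comparison by limma, against 4.32% of all genes. They also gave 0 calls in all 19 alternatives. All 6 estimates were positive, against 57.2% of all genes, and 3 had an unadjusted p under 0.05, against 21.8%. Of these genes, Hif1a and Epas1 are known to be controlled largely through protein stability, which arrays do not measure. Hif1a, the oxygen-labile HIF subunit, was at 9.37, 9.47, 9.66 and 9.28 in the low arrays and at 9.63, 9.66, 9.73 and 9.83 in the high arrays. Low 3 lay level with high 2 and above high 1. The difference was 0.27 ± 0.09 (SE), with a 95% interval of 0.06 to 0.47 and an adjusted p of 0.132. Epas1 (HIF-2α), the subunit prominent in endothelium, was at 9.21, 9.16, 8.98 and 8.96 in low and at 9.21, 9.26, 9.30 and 9.33 in high scars. Low 3 and low 4 were its lowest arrays, and 0.20 ± 0.07 (SE; adjusted p = 0.170) became 0.09 without them.

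Arnt, the stable partner of both, was the mean of rows that disagreed, at 0.50 for the dimmer and -0.10 for the brighter. The prolyl hydroxylases Egln1 and Egln3, which mark HIF for destruction, differed by 0.13 and 0.23. Egln3, a HIF target in its own right, was low in low 3 (9.50) and low 4 (9.25) and at 9.70 to 10.04 on the other arrays, and without those arrays its difference was -0.03. Vhl, the substrate receptor of the ubiquitin ligase, differed by 0.09, with a 95% interval of -0.11 to 0.28.

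Among 10 genes of the hypoxia response, 2 rose and 0 fell, against 1.86% and 2.47% of all genes. Positive estimates were found in 9 of the 10, against 57.2% of all genes. Ankrd37, a small ankyrin-repeat protein induced by HIF, was at 6.22, 6.03, 5.83 and 5.87 in the low arrays and at 6.39, 6.50, 6.70 and 6.61 in the high arrays. The groups were separate, with low 3 and low 4 lowest. Its rise was 0.56 ± 0.10 (SE; limma adjusted p = 0.0206), and 0.43 (adjusted p = 0.113) without those 2 arrays. These levels are close to the array medians. Vegfa, the main growth factor of new vessels, was at 8.62, 8.53, 8.43 and 8.50 in low and at 8.73, 8.87, 9.12 and 8.96 in high scars. High 3 was the highest and the groups did not overlap. Vegfa rose by 0.40 ± 0.09 (SE; limma adjusted p = 0.0405), and by 0.34 without low 3 and low 4, where it did not pass (adjusted p = 0.202).

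The other hypoxia response genes did not pass. Ndrg1, a strongly hypoxia-induced gene also of differentiating epithelium, differed by 0.27 ± 0.10 (SE), with 10.66 to 11.03 in the low and 10.93 to 11.26 in the high arrays. Adm (adrenomedullin, a vasodilator peptide) differed by 0.21, Ddit4 (an inhibitor of mTOR signalling) by 0.16 and Car9 (a carbonic anhydrase that is a tissue marker of hypoxia) by 0.11. Car9 lay at 6.04 to 6.34 on all arrays, at the level of the array medians. Bnip3 and Bnip3l, receptors for the removal of mitochondria, differed by 0.15 and 0.18. Their rows disagreed in sign, from -0.04 to 0.34 in Bnip3 and from -0.16 to 0.68 in Bnip3l. Vldlr (a lipoprotein receptor) was at 7.39, 7.56, 7.76 and 8.14 in the low and 7.75 to 7.90 in the high arrays. Its difference was 0.14, and 0.38 (adjusted p = 0.0833) without low 3 and low 4. Higd1a, a mitochondrial survival protein, was at 8.48, 8.46, 8.77 and 8.43 in the low and at 8.40, 8.28, 8.51 and 8.77 in the high arrays. Its groups overlapped over most of their range, and its difference of -0.04 was 0.02 without low 3 and low 4.

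**Figure D3:**
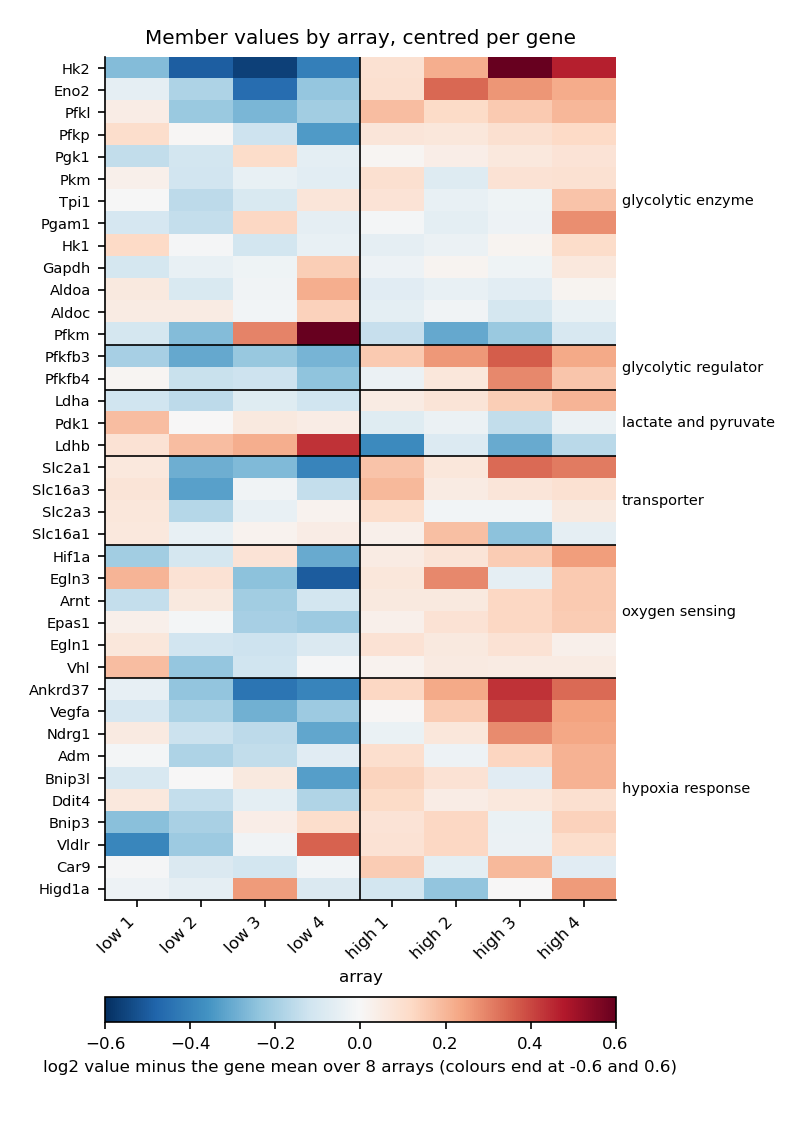
Log2 value of each measured member on each array (columns) minus the gene's mean over the 8 arrays, with genes in rows by role, on a colour scale that ends at -0.6 and 0.6. Hk2, Pfkfb3, Ankrd37 and Vegfa are blue or near white in the low arrays and red or near white in the high arrays. Ldhb is the reverse, and Pfkm is red in low 3 and low 4 alone.

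Skeletal muscle is rich in glycolytic enzymes, so the members were set against the 2 muscle-rich arrays. Low 3 and low 4 both exceeded the other 6 arrays in 25 of 28 muscle markers, in 11.4% of all genes and in 2 of 38 measured members, Pfkm and Ldhb. Both arrays were below the other 6 in 7 members (11.6% of all genes), Ankrd37, Eno2, Vegfa, Epas1, Egln3, Pfkp and Ndrg1. Pfkm, the muscle-type phosphofructokinase, was at 7.79, 7.63, 8.19 and 8.73 in the low arrays and at 7.75, 7.59, 7.67 and 7.80 in the high arrays. Only low 3 and low 4 stood out. Its difference was -0.38 ± 0.21 (SE; adjusted p = 0.307), and -0.01, with an adjusted p of 0.972, without those arrays. Aldoa, the aldolase of muscle and of most other tissues, was at 9.66, 9.50, 9.58 and 9.81 in low and at 9.53, 9.55, 9.53 and 9.61 in high scars, highest in low 4 but not raised in low 3. Its difference of -0.08 ± 0.07 was -0.02 without them.

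Muscle isoforms outside the 40 genes separated the same arrays. Eno3, the muscle enolase, was at 7.72, 7.70, 9.97 and 10.42 in low 1 to 4 and at 7.71 to 7.87 in the high arrays. Pgam2, the muscle phosphoglycerate mutase, was at 6.99, 7.13, 8.31 and 8.80, against 7.07 to 7.20. Pygm, the muscle glycogen phosphorylase, was at 7.46, 7.49, 9.78 and 10.27, against 7.39 to 7.44. In these genes low 1 and low 2 were close to the high group. The differences of -1.19, -0.67 and -1.33 did not pass, and were 0.06, 0.08 and -0.05 without low 3 and low 4. Pdk4, a starvation-induced kinase of muscle, was at 9.24 in both muscle-rich arrays and at 7.68 to 8.19 elsewhere, and Fbp2, the muscle fructose bisphosphatase, at 6.73 and 7.04, against 6.30 to 6.56.

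**Figure D4:**
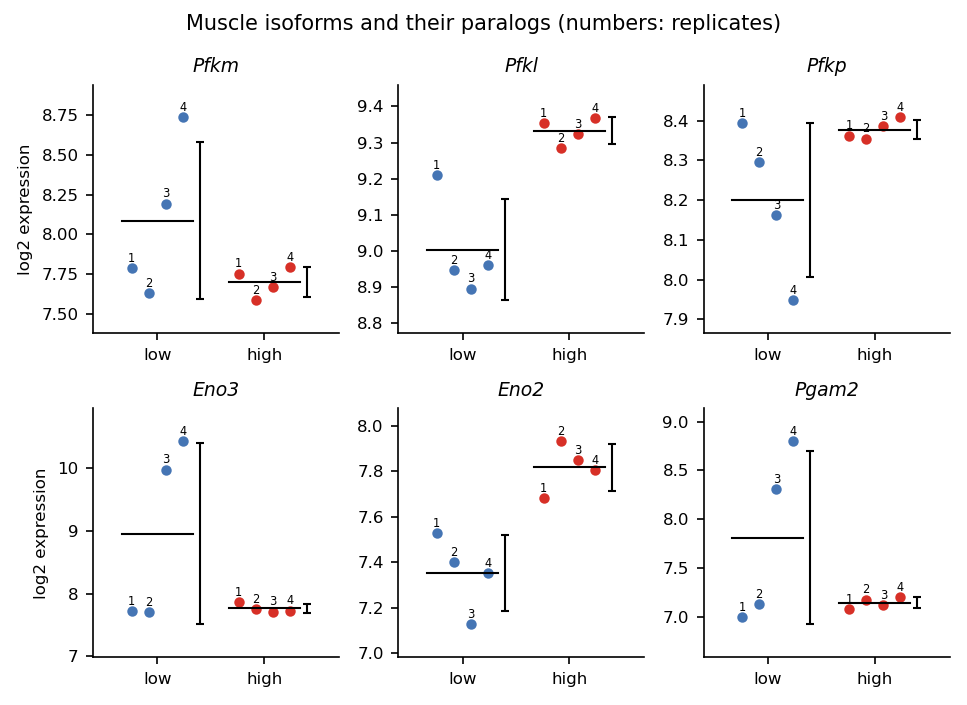
Log2 expression (y axis, scaled per gene and not starting at 0) of the muscle isoforms Pfkm, Eno3 and Pgam2 and of the paralogs Pfkl, Pfkp and Eno2 on each array, with replicate numbers, the mean as a line and the SD as a whisker (n = 4 per group). Low 3 and low 4 are the top arrays for the 3 muscle isoforms, while Pfkl and Eno2 are higher in all high arrays.

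The 6 risers were at or below the level of low 1 in low 3 and low 4. Their mean in low 3 and low 4 minus that in low 1 and low 2 ran from -0.27 (Ankrd37) to -0.0004 (Pfkfb3). Whether muscle content lowered these values, and so widened the rises, was not tested. Leaving out low 3 and low 4 left Pfkfb3 as the only called member, while in that setting 0.627% of all genes were higher and 0.977% lower. The estimates of all 7 called members kept their sign there, at 0.81 for Hk2, 0.50 for Pfkfb3, 0.43 for Ankrd37, 0.35 for Eno2, 0.34 for Vegfa, 0.25 for Pfkl and -0.37 for Ldhb. Without low 2, low 4 and high 4, the arrays with Y-linked signal, 0 members were called among 15 called genes (0.074% of all), and the 7 estimates were again of the same sign, between 0.27 (Pfkl) and 0.83 (Hk2) for the risers and -0.41 for Ldhb. Single arrays also decided calls. With low 2, low 4 or high 4 left out, Pfkfb3 alone of the 7 was called, with low 3 left out Pfkfb3 and Eno2, and with high 3 left out Pfkfb3 and Hk2.

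**Figure D5:**
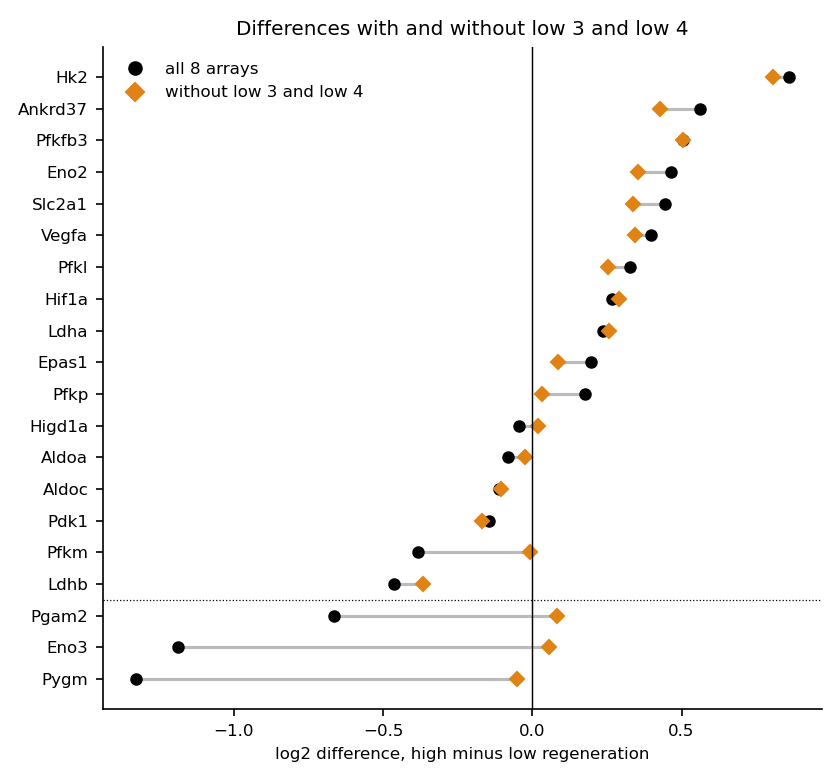
Log2 difference (high minus low regeneration, x axis) of 17 members and, under the dotted line, of 3 muscle isoforms, with all 8 arrays (black circles) and without low 3 and low 4 (orange diamonds). The differences of Pygm, Eno3, Pgam2 and Pfkm move to near 0, whereas Hk2 and Pfkfb3 stay at 0.81 and 0.50.

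Other cell types also differed between the biopsies, and their calls stand beside 1.86% of all genes higher and 2.47% lower. Of 13 measured hair shaft and root sheath markers 11 were lower in high-regeneration scars and 0 higher, with array means of 9.89 to 10.94 in low and 8.07 to 9.08 in high scars. Keratinocyte markers had 0 of 12 higher and 1 lower, with means of 11.03 to 11.24 over all 8 arrays. These means combine 7 positive and 5 negative estimates, from -0.74 (Krt15) to 0.59 (Ivl). Of the 12, 7 had an unadjusted limma p under 0.05, against 21.8% of all genes. Endothelial markers had 1 of 9 higher, with means of 7.84 to 7.999 in low and 7.97 to 8.26 in high scars. Fibroblast markers had 0 of 10 higher and 1 lower, with means of 10.65 to 10.85 over all arrays. Adipocyte markers had 0 of 11 called, with means of 7.84 and 7.92 in low 3 and low 4 and 6.80 to 7.21 elsewhere. All 11 adipocyte estimates were negative, at a median of -0.58, and of -0.20 without low 3 and low 4. Of the 11, 9 had an unadjusted limma p under 0.05 (21.8% of all genes). In 5, every high array lay below every low array (7.29% of all genes). Macrophage and neutrophil markers had 0 of 10 called, with means of 7.99 to 8.49 in low and 8.20 to 8.52 in high scars. The part of these cell types in the differences of the glycolysis and hypoxia genes was not tested.

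Further genes of the same pathways gave calls in both directions, beside 1.86% of all genes higher and 2.47% lower. Of 22 other measured glycolytic and gluconeogenic genes 0 were higher and 2 lower, at a median of -0.08. Fbp1, the fructose bisphosphatase of gluconeogenesis, was at 8.55, 9.11, 8.24 and 8.61 in the low and 7.44, 7.35, 6.92 and 6.85 in the high arrays. The groups lay far apart, with a difference of -1.49 ± 0.19 (SE; limma adjusted p = 0.00706), and Fbp1 also passed without low 3 and low 4 at -1.69 (adjusted p = 0.0176). Adpgk, an ADP-dependent glucokinase, fell by 0.30 on the log2 scale. Of 14 other sugar and lactate transporters 0 were higher and 2 lower, the monocarboxylate transporters Slc16a7 (MCT2) at -0.98 ± 0.13 (SE) and Slc16a6 at -0.35 ± 0.06. Slc16a7 was at 8.15, 8.62, 8.47 and 8.66 in the low and at 7.72, 7.61, 7.26 and 7.39 in the high arrays, with no overlap. Unlike Fbp1, these genes did not pass without low 3 and low 4. The limma adjusted p was then 0.0555 for Slc16a7 (-0.89), 0.105 for Slc16a6 (-0.30) and 0.103 for Adpgk (-0.29).

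Genes that handle pyruvate at the mitochondrion had 0 of 12 higher and 1 lower, Pcx (pyruvate carboxylase) at -0.54 ± 0.08, at a list median of -0.29. Both muscle-rich arrays were the top arrays in 10 of these 12 genes (11.4% of all genes), and without those arrays the median was -0.08. Pcx was among the 10, and passed without those arrays at -0.45 (adjusted p = 0.0409). The lists of the pentose phosphate pathway (10 genes), glycogen metabolism (13), oxidative phosphorylation (33) and other HIF regulators (15) gave 0 calls in limma. In that order, 5, 3, 10 and 1 genes had an unadjusted p under 0.05, against 21.8% of all genes. The medians of these lists were -0.20, -0.20, -0.12 and 0.01, and without low 3 and low 4 they were -0.08, 0.01, -0.06 and 0.01. Low 3 and low 4 were the top arrays in 16 of the 33 oxidative phosphorylation genes and in 9 of the 13 glycogen genes.

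Of 55 other known hypoxia targets 5 rose (1.86% of all genes) and 2 fell (2.47% of all genes), at a median of 0.06. The risers were Cxcr4 (a chemokine receptor) at 0.55 ± 0.09 (SE), Plod2 and P4ha1 (collagen hydroxylases) at 0.49 ± 0.09 and 0.37 ± 0.07, Igfbp3 (a carrier of insulin-like growth factors) at 0.49 ± 0.10 and Pgf (placental growth factor, a relative of Vegfa) at 0.46 ± 0.10. The 2 that fell were the metallothionein Mt1, by 0.54 ± 0.08, and the vasoconstrictor Edn1 (endothelin), by 0.42 ± 0.09. Pgf was at 6.99, 6.78, 6.67 and 6.71 in the low and 7.03, 7.23, 7.45 and 7.27 in the high arrays. As in Vegfa, high 3 was its highest array and low 1 the nearest of the low group. Without low 3 and low 4, Cxcr4 and Plod2 passed as risers and Mt1 as lower.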

How the data were processed

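Gene expression was measured in wound-scar biopsies of mice on 8 Affymetrix exon arrays, 4 in each group as the labels give them. Per the submitters' processing notes, the authors summarised probes with PLIER in Expression Console. The sources used here do not say how background was corrected or arrays normalized. Values as deposited were taken as log2 values from their range of 2.10 to 14.92. The deposited file has 115830 rows, of which the platform annotation pairs 25539 with 1 symbol, 2300 with several and 87991 with no listed gene. Of the rows with 1 symbol, 24941 matched GRCm38.p6 by Entrez number and 0 symbols changed. Log2 values were averaged over a gene's rows, and rows with several symbols were left out.

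High minus low was fitted over all 20259 genes with limma 3.58.1 in R 4.3.3 (lmFit and eBayes, two-sided), with files read by version 1.17.8 of the data.table package, and p-values were adjusted by Benjamini-Hochberg. The fit was tested on simulated data with known changes. The 19 alternatives were a replicate block, 3 further scalings (cyclic loess, median centring, quantile), a trended and a robust eBayes, dropping genes below the 25th percentile, each gene's brightest row, leaving out each array, leaving out low 3 and low 4 or the 3 arrays with Y-linked signal, and the muscle marker mean as a covariate. The members, the gene lists and these settings were chosen with earlier results of these data known. Named with all values were members that passed, the 6 largest estimates in each direction, members raised in low 3 and low 4, and the Pfk, Ldh and HIF subunit families, and others were described by range. Of the further lists, the called genes and 5 muscle isoforms were named. Depth has no meaning for arrays, and the number of arrays limits the precision.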

Additional observations from a re-analysis of the deposited data

Results flagged for a closer look

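Within a group of 4 arrays, 3 values of the 38 measured members lay far from the other arrays of their group, among 76 groups examined. Chance flags about 1 in 20 such groups. Pgam1 was at 9.17 in high 4, against 8.84 to 8.88 in the other high arrays. Pkm was at 9.63 in high 2, against 9.80 to 9.81. Higd1a was at 8.77 in low 3, against 8.43 to 8.48. None of these 3 genes passed in the comparison of the groups.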

How the results depend on the processing

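The 7 called members kept their sign in all 19 alternatives, while the number called depended on the arrays used. Leaving out 1 array gave 292 to 1205 called genes in the whole table (876 with all arrays), 1 to 7 members higher (6), 0 to 1 lower (1), 5 to 22 called genes of the further lists (12) and a median member difference of 0.12 to 0.18 (0.16). Without low 3 and low 4 there were 325 called genes, 1 member higher, 0 lower and 5 called genes of the further lists. The muscle marker mean as a covariate gave 337, 1, 0 and 5. Dropping the 3 arrays with Y-linked signal leaves 2 low and 3 high arrays and gave 15, 0, 0 and 0, and the member median was 0.10. Median centring gave a member median of 0.091. With the replicate number as a block there were 239 called genes, 1 member higher, 0 lower and 3 of the further lists. Same-numbered arrays had correlations of their deviations of -0.08, 0.02, -0.26 and -0.10. Without differently numbered pairs beside them, these values cannot tell whether same-numbered samples shared a batch or a pairing. The labels give only the number. The sign turned in at least 1 alternative in 9 members, 0 of them called: Arnt, Egln3, Gapdh, Higd1a, Hk1, Pfkm, Pgam1, Slc16a1 and Slc2a3. Egln3 ranged from -0.045 to 0.34 and Arnt from -0.10 to 0.25. Among the members given with all values, Pfkm was at 0.017 with the muscle covariate, and Higd1a at -0.14 to 0.034 with 1 array left out, at 0.034 without low 3, 0.027 without high 2 and 0.019 without low 3 and low 4. Fewer arrays were fitted in the settings that left arrays out, and the cause of the other changes was not tested.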
